A study of Mus musculus with 2 samples.

Results

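The genes described here are 10 that act on collagen while it is made and exported. They are the prolyl 4-hydroxylase alpha subunits *P4ha1*, *P4ha2* and *P4ha3*, the lysyl hydroxylases *Plod1*, *Plod2* and *Plod3*, the prolyl 3-hydroxylation genes *P3h1* and *Crtap*, the collagen chaperone *Serpinh1* and the propeptidase enhancer *Pcolce*. They were chosen by symbol for these roles, and all 10 were found among the 22156 genes of the deposited table. Every one of them had at least 500 counts over both libraries and passed the filter on low counts.

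A procollagen chain is modified in the endoplasmic reticulum before it folds. Prolyl 4-hydroxylases, tetramers of alpha subunits with the shared beta subunit P4HB, make the 4-hydroxyproline that keeps the triple helix stable at body temperature. Lysyl hydroxylases make the hydroxylysine used for sugar attachment and for crosslinks. Both enzyme families need oxygen, iron, 2-oxoglutarate and ascorbate. HSP47, the product of *Serpinh1*, holds the folded helix, and after secretion the propeptides are cut off by proteases such as BMP1, which the product of *Pcolce* assists. In cartilage the main substrate is type II collagen, and in fibroblasts and bone it is type I.

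RNA sequencing was performed on primary chondrocytes from rib cartilage, as labelled, of newborn mice aged 24 to 72 h, for which the methods name articular cartilage as a further source of cells, with 1 library for the control genotype and 1 for *Myl3*-KO. The *Myl3*-KO mice carried *Col2a1-Cre* and *Myl3* flox/flox, so that the Cre recombinase acts in cells that use the *Col2a1* promoter, and the controls were *Myl3* flox/flox littermates in the methods of the study but WT in the sample labels. All mice were on the C57BL/6J background, and both cultures were kept as a monolayer in DMEM/F12 with serum and left untreated. How many mice were pooled for each library is not given in the sources used here. The library totals were 17612434.91 (control) and 13477976.98 (*Myl3*-KO) expected counts, the reads estimated for each gene. FPKM values, which are scaled by transcript length and library, were used to compare levels between genes, and CPM, counts scaled to a common library total, to compare the libraries.

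With 1 library per genotype no difference below has a replicate check. The exact binomial test used here, two-sided and with Benjamini-Hochberg adjustment over the 12431 genes that had at least 10 counts over both libraries, compares the reads of these libraries and not the genotypes. Each 95% interval covers counting error only. *Myl3* itself had 0 counts in both libraries, which allows up to 0.170 CPM (control) and 0.223 CPM (*Myl3*-KO), so the labels have no check from the deleted gene. The labelled cell type was not borne out by most of its 14 listed chondrocyte markers. Of these, 13 were found, with summed levels of 69.0 CPM (control) and 69.5 CPM (*Myl3*-KO). Most of this sum was the regulator gene *Sox9* (49.2 and 35.6 CPM) and *Col11a2* (16.6 and 29.3 CPM). Counts of *Col2a1* were 30 (control) and 27 (*Myl3*-KO), and those of *Acan*, *Matn1*, *Matn3*, *Hapln1* and *Cnmd* were 0 in each library. The fibroblast markers summed to 18736 and 22358 CPM, most of it collagen and fibronectin RNA, with *Thy1* at 0 in both. Osteoblast markers summed to 190 and 207 CPM, most of it *Runx2* (168 and 181 CPM). Muscle, immune, endothelial and erythroid markers each summed to less than 3 CPM in either library. In bulk RNA, fewer cells of a type and less RNA per cell cannot be told apart.

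*P4ha1*, *P4ha2* and *P4ha3* are shown first by sequence, since they are the members whose levels moved farthest apart between the libraries. The 250 bases before the RefSeq transcript start are printed for each, read on the plus strand of GRCm38.p6, on which all 3 genes lie. They cover chr10:59323046-59323295 for *P4ha1*, chr11:54100674-54100923 for *P4ha2* and chr7:100285270-100285519 for *P4ha3*. Those of *P4ha1* and *P4ha3* end just before the start of the gene in GENCODE M21. That of *P4ha2* lies within its gene, which starts farther upstream, at base 54100095. Capitals mark the letters ACGTG or GCGTG, the core of the hypoxia response element, on either strand, so that CACGT and CACGC are the same letters read from the other strand.
*P4ha1*: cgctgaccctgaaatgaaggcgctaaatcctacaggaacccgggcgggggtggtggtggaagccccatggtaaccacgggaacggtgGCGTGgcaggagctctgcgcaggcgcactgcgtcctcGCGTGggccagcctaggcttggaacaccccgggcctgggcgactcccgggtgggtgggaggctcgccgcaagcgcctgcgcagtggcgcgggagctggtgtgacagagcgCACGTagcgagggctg
*P4ha2*: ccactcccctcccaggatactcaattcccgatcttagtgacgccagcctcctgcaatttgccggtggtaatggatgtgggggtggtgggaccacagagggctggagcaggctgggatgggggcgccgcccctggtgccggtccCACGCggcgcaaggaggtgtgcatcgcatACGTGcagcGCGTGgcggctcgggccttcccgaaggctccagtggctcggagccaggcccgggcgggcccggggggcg
*P4ha3*: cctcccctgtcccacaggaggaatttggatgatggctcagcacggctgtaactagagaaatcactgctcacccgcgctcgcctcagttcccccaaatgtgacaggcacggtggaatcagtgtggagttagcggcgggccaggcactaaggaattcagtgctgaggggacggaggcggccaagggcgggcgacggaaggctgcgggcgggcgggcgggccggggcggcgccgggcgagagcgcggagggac
The upstream stretch of *P4ha1* holds 3 such words, that of *P4ha2* holds 3 and that of *P4ha3* holds 0. The words were also counted in the whole RefSeq window of 300 bases, from 250 before to 50 after the start, where *P4ha2* has a further match at base 11 after the start. Of 32851 RefSeq windows of this length, 19.6% hold ACGTG, 32.4% hold GCGTG, 43.8% hold either and 8.24% hold both. Of the 10 members, 9 had a window and *Plod2* was without an entry. ACGTG was found in 5 of these 9 members, GCGTG in 7, either in 8 and both within a single window in 3, which were *P4ha1*, *P4ha2* and *Plod3*. Counted by window, as the shares above are, ACGTG was in 5 of the 10 member windows, GCGTG in 7, either in 9 and both in 3. Of the members not printed, *Plod3* had 4 matches in its window, *Crtap* 3, *Plod1* 2, and *Serpinh1* and *Pcolce* 1 each. *P3h1* had 2 in each of its windows. Any link of these words to the levels was not tested. Each word is short and holds a CpG, and the printed stretches have GC contents of 67.2%, 69.6% and 70%, so a match is a description of the letters and not a binding site.

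The members spanned a wide range of levels. In the control library *Pcolce* was the most abundant at 628 FPKM, followed by *Serpinh1* at 401, *P4ha1* at 121, *Crtap* at 73.6, *Plod2* at 62.2, *Plod3* at 62.0, *P4ha2* at 34.8, *P3h1* at 23.3, *Plod1* at 21.9 and *P4ha3* at 9.63. Neighbours in this order differed by more than their counting intervals, except *Plod2* and *Plod3*, and *P3h1* and *Plod1*. In *Myl3*-KO the first 4 places were the same and *P4ha3* was again last. *P4ha2* went from place 7 to place 9, behind *P3h1* and *Plod1*, although the intervals of neighbours among these 3 overlapped.

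**Figure D1:**
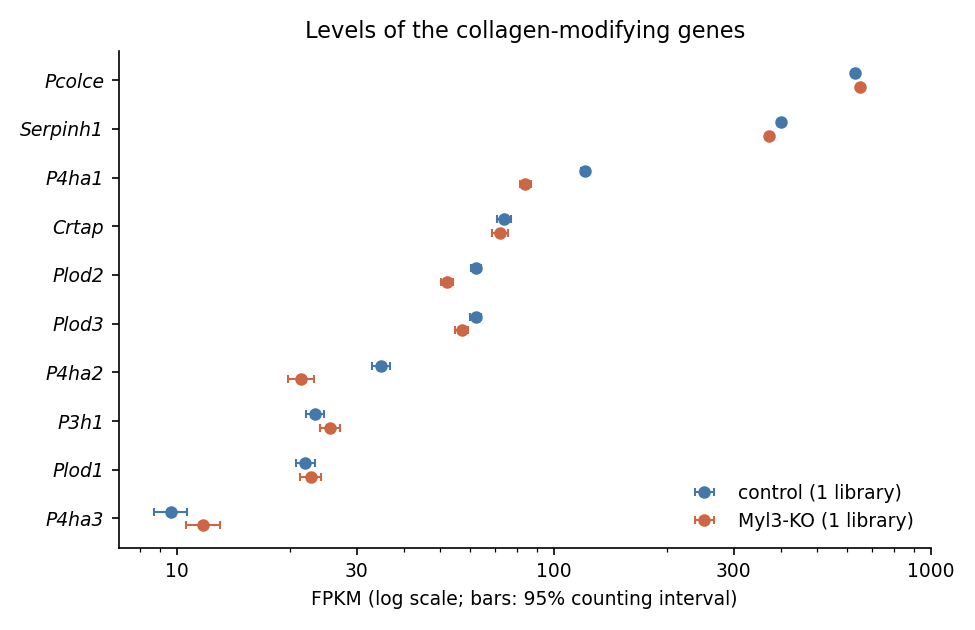
Level of each gene in FPKM (log scale) in the control library (blue) and the *Myl3*-KO library (red), 1 library each, with bars for the 95% counting interval. The points of *P4ha1* lie at 121 and 83.9 FPKM and those of *P4ha2* at 34.8 and 21.4, while those of *Crtap* lie at 73.6 and 72.2 with overlapping bars.

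Between the libraries, 5 of the 10 genes fell in *Myl3*-KO by the exact binomial test (adjusted p under 0.05), 1 rose and 4 did not pass. The genes that fell were *P4ha1*, *P4ha2*, *Plod2*, *Plod3* and *Serpinh1*, and the gene that rose was *P4ha3*. Of all genes tested, 16.8% fell and 18.6% rose by the same rule, and among the 8219 with at least 500 counts, a background chosen after seeing the data, 23.6% fell and 22.4% rose. At a limit of 0.5 on the log2 ratio, *P4ha1* and *P4ha2* were lower and 0 members were higher, against 3.75% of all genes tested lower and 7.99% higher, and against 0.767% and 1.61% of the genes with at least 500 counts. The median log2 ratio of the members was -0.07, beside 0.02 for all genes tested. These calls rest on counting error alone. With an assumed coefficient of variation of 0.1 between cultures, edgeR's exact test called 0 of the 10 members at an adjusted p under 0.05. By the same rule it called 61 of the 12431 genes tested.

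**Figure D2:**
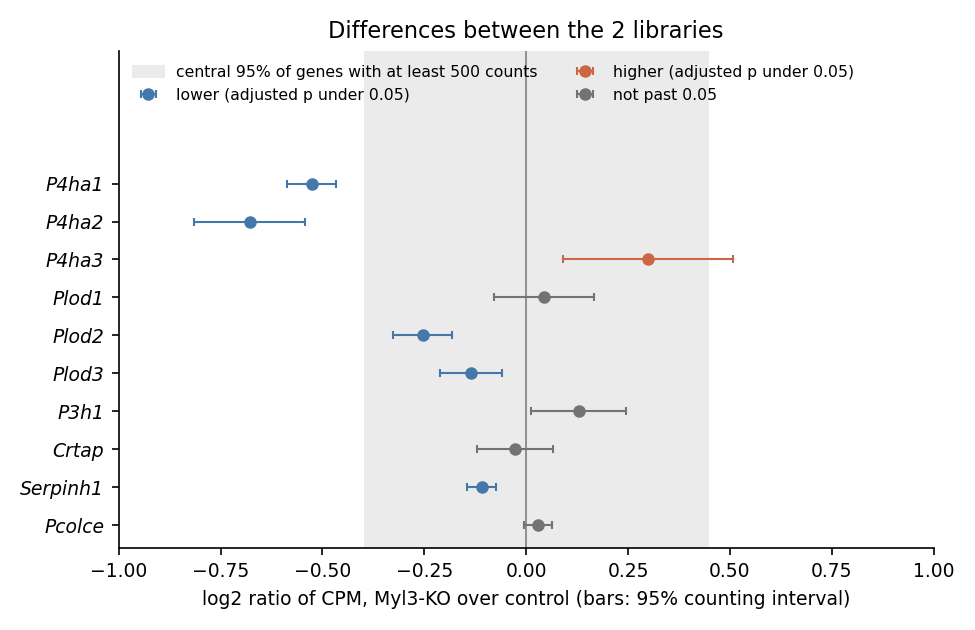
Log2 ratio of CPM, *Myl3*-KO over control, for each gene, with 95% counting intervals and the central 95% of the 8219 genes with at least 500 counts in grey (-0.39 to 0.45). *P4ha1* (-0.53) and *P4ha2* (-0.68) lie outside the grey band and the other 8 genes inside it, *P4ha3* at 0.30 with a bar that reaches 0.51.

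The alpha subunits of prolyl 4-hydroxylase went in different directions. *P4ha1* (ENSMUSG00000019916, chr10:59323296-59373304 on GRCm38), the main alpha subunit of most tissues, had 6450 control and 3428 *Myl3*-KO counts, or 366 and 254 CPM. It fell to 0.695 of the control level (log2 ratio -0.53, 95% interval -0.59 to -0.47, exact binomial adjusted p = 3.22e-66). *P4ha2* (ENSMUSG00000018906, chr11:54100095-54131665), the subunit known from chondrocytes and bone, had 1355 and 648 counts, or 76.9 and 48.1 CPM. Its ratio of -0.68 on the log2 scale (95% interval -0.82 to -0.54, exact binomial adjusted p = 4.20e-22) was the lowest of the 10, and 2.23% of the genes tested had a lower ratio, against 3.43% for *P4ha1*. The least abundant subunit moved the other way. *P4ha3* (ENSMUSG00000051048, chr7:100285520-100319699) had 393 and 370 counts, or 22.3 and 27.5 CPM, and rose (log2 ratio 0.30, 95% interval 0.09 to 0.51, exact binomial adjusted p = 0.0157). When the libraries were scaled by the summed counts of the fibrillar collagen chains, a scaling chosen after seeing the data that shifts every log2 ratio by -0.20, its ratio was 0.10 and did not pass the test.

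Ratios between subunits within a library do not depend on the scaling. *P4ha1* exceeded *P4ha3* 12.6-fold by FPKM in the control library and 7.16-fold in the *Myl3*-KO library, and the count ratio differed between the libraries by -0.82 on the log2 scale (95% conditional exact interval -1.04 to -0.61). *P4ha2* exceeded *P4ha3* 3.62-fold and 1.82-fold (log2 difference -0.98, -1.23 to -0.73). For *P4ha1* over *P4ha2* the difference was 0.15 (0.00 to 0.30), with the lower end just above 0. In all, 7 such pairs were compared, without adjustment for their number. Of the summed FPKM of the 3 subunits, *P4ha1* made up 73.2% in the control and 71.7% in *Myl3*-KO, *P4ha2* 21.0% and 18.3%, and *P4ha3* 5.81% and 10.0%. The family thus stayed mostly *P4ha1* while its sum went from 166 to 117 FPKM.

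Among the lysyl hydroxylases the differences were smaller. *Plod2* (ENSMUSG00000032374, chr9:92542223-92608428), whose product hydroxylates lysines of the collagen telopeptides, had 4009 control and 2572 *Myl3*-KO counts, or 228 and 191 CPM. It fell to 0.838 of the control level (log2 ratio -0.25, 95% interval -0.33 to -0.18, exact binomial adjusted p = 5.03e-11). *Plod3* (ENSMUSG00000004846, chr5:136987019-136996648), a lysyl hydroxylase that also transfers sugars, had 3378.40 and 2353.38 expected counts and fell slightly (log2 ratio -0.14, 95% interval -0.21 to -0.06, exact binomial adjusted p = 0.00224). *Plod3* overlaps *Znhit1* on the opposite strand, and the strand used in counting is not given in the sources used here, so reads of this pair may have been split. *Znhit1* had 1059.6 and 762.62 expected counts (log2 ratio -0.09, -0.22 to 0.05). *Plod1* (ENSMUSG00000019055, chr4:147909753-147936767), which hydroxylates lysines within the helix, had 1217 and 960 counts, or 69.1 and 71.2 CPM, and did not pass the test (log2 ratio 0.04, 95% interval -0.08 to 0.17, exact binomial adjusted p = 0.649).

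*Plod2* and *Plod3* were the larger parts of this family in both libraries. *Plod2* made up 42.6% of the summed FPKM in the control and 39.6% in *Myl3*-KO, *Plod3* 42.4% and 43.2%, and *Plod1* 15.0% and 17.2%. *Plod1* relative to *Plod2* went from 0.353 to 0.435 by FPKM, a difference of the count ratios of 0.30 on the log2 scale (95% conditional exact interval 0.15 to 0.44). The pairs *Plod1* over *Plod3* (0.18, 0.03 to 0.32) and *Plod2* over *Plod3* (-0.12, -0.22 to -0.01) differed less. The summed level of the family went from 146 FPKM to 132 FPKM.

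**Figure D3:**
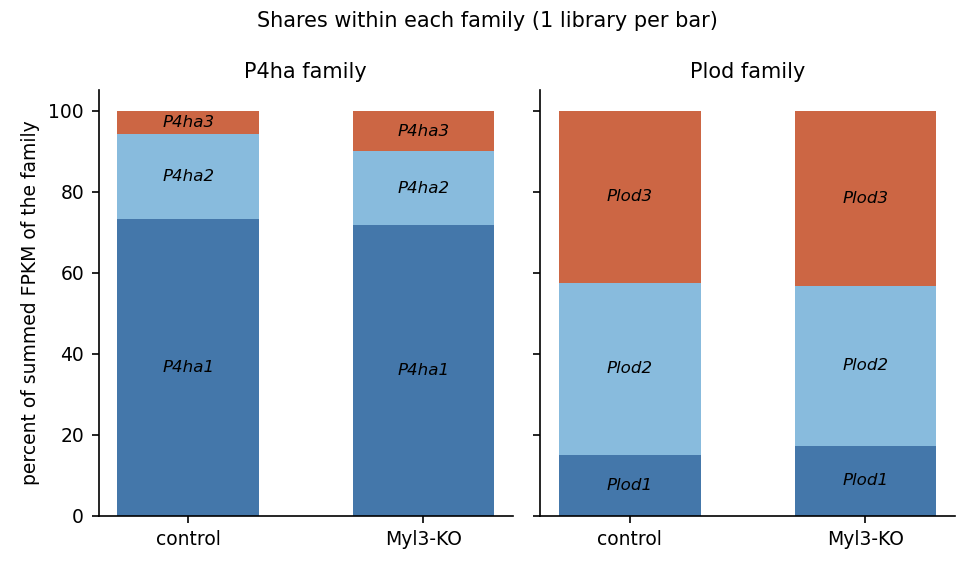
Share of each subunit gene in the summed FPKM of its family, in percent, for the P4ha genes (left) and the Plod genes (right), with 1 library per bar. The *P4ha3* part is 5.81% of the control bar and 10.0% of the *Myl3*-KO bar, and the *Plod1* part 15.0% and 17.2%.

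The genes of the prolyl 3-hydroxylation complex did not pass the test in either direction. The products of *P3h1* and *Crtap* form a complex with cyclophilin B, encoded by *Ppib*, that modifies single prolines and assists folding. *P3h1* (ENSMUSG00000028641, chr4:119232915-119248975), the catalytic member, had 1305 control and 1092 *Myl3*-KO counts, or 74.1 and 81.0 CPM (log2 ratio 0.13, 95% interval 0.01 to 0.25, exact binomial adjusted p = 0.0785). *Crtap* (ENSMUSG00000032431, chr9:114375134-114390675), its non-enzymatic partner, had 2170 and 1629 counts, or 123 and 121 CPM (log2 ratio -0.03, 95% interval -0.12 to 0.07). *Crtap* lies 3.61 Mb from *Myl3* on the same chromosome and *Plod2* lies 18.13 Mb from it. The FPKM ratio of *P3h1* to *Crtap* was 0.317 and 0.353, with a log2 difference of the count ratios of 0.16 (95% conditional exact interval 0.01 to 0.31). *Ppib* went from 4084.28 to 2630.31 expected counts and fell (log2 ratio -0.25, 95% interval -0.32 to -0.18).

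The chaperone and the propeptidase enhancer were the most abundant members. *Serpinh1* (ENSMUSG00000070436, chr7:99345376-99353239) had 14949 control and 10603 *Myl3*-KO counts, or 849 and 787 CPM. It fell to 0.927 of the control level (log2 ratio -0.11, 95% interval -0.15 to -0.07, exact binomial adjusted p = 2.96e-08), and 30.2% of the genes tested had a lower ratio. *Pcolce* (ENSMUSG00000029718, chr5:137605103-137613784) had 16642 and 12994 counts, or 945 and 964 CPM, and was at 0.03 on the log2 scale (95% interval -0.00 to 0.06, exact binomial adjusted p = 0.179). At this depth a difference of *Pcolce* beyond 0.06 lies outside the counting interval. *Fbxo24*, which overlaps *Pcolce* on the same strand, had 118 and 103 counts, few beside those of *Pcolce*.

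The other genes of collagen processing were taken from 3 lists written by function: partners and folding factors, procollagen export, and propeptide proteases with their enhancers. Of 24 genes listed, 20 were tested, of which 6 rose, 5 fell and 9 did not pass, with a median log2 ratio of -0.01. By the same test 18.6% of all genes tested rose and 16.8% fell. *P4hb*, the beta subunit that every P4ha chain needs, had 29234 control and 20151 *Myl3*-KO counts and fell (log2 ratio -0.15, 95% interval -0.18 to -0.12). Relative to *P4hb*, the summed FPKM of the 3 alpha subunits was 28.6% (control) and 22.4% (*Myl3*-KO), with a lower ratio in the latter (log2 difference by counts -0.35, 95% interval -0.41 to -0.29). The folding factor gene *Fkbp14* rose (log2 ratio 0.21), *Tmem38b* fell (-0.35), and *Fkbp10*, which acts with lysyl hydroxylase, was at 0.01. Of the export genes, *Mia3* (0.19) and *Creb3l1* (0.34) rose and *Sec23a* fell (-0.24).

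Of the propeptide proteases and enhancers other than *Pcolce*, 5 were tested, of which 3 rose, 1 fell and *Adamts3*, at -0.02, did not pass. *Bmp1*, the C-proteinase that *Pcolce* assists, had 1091 control and 1220 *Myl3*-KO counts, and rose by 0.55 on the log2 scale (95% interval 0.43 to 0.67, exact binomial adjusted p = 4.02e-18). *Adamts2*, an N-proteinase, had 900 and 1184 counts (log2 ratio 0.78, 0.66 to 0.91), and the related *Adamts14* had 203 and 220 (0.50, 0.22 to 0.78). *Pcolce2*, the paralogue of *Pcolce*, fell from 301 to 179 counts (log2 ratio -0.36, 95% interval -0.64 to -0.09). The 3 that rose were also past the limit of 0.5, as were 7.99% of all genes tested in that direction. Among the genes with at least 500 counts, a background chosen after seeing the data, the share was 1.61%. *Bmp1* and *Adamts2* belong to that background and *Adamts14* does not. *Adamts14* was past the limit only narrowly, and was at 0.47 with TMM scaling, 0.48 with DESeq2 size factors and 0.47 by the FPKM ratio.

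The substrate RNA moved opposite to several of the enzymes. Of the 9 fibrillar collagen chains, 6 rose, 0 fell and 3 did not pass, where 18.6% of all genes tested rose and 16.8% fell. Among the 6 that rose, *Col5a3* had only 10 and 32 counts. The median log2 ratio of the 9 was 0.22 on the scale of library totals, from which TMM and DESeq2 scaling shift every ratio by -0.03 and -0.02. *Col1a2*, which held 65.7% and 66.7% of the summed collagen counts, had a log2 ratio of 0.22 (95% interval 0.22 to 0.23), *Col1a1* one of 0.15 and *Col5a1* one of 0.28, while *Col3a1* was at 0.01. Set against the summed FPKM of these chains, the P4ha sum went from 4.94% to 3.06% (log2 difference by counts -0.70, 95% interval -0.75 to -0.65). The Plod sum was 4.35% and 3.44% (-0.36, -0.41 to -0.32), *Serpinh1* 12.0% and 9.71% (-0.31, -0.35 to -0.28) and *Pcolce* 18.7% and 17.0% (-0.17, -0.21 to -0.14). Each of these 4 ratios was lower in *Myl3*-KO beyond its counting interval. Scaled by the collagen sum in the same way, the median of all genes tested was -0.19 and 43.1% of them were lower, and *Pcolce*, at -0.17, was not below that median. Cell type markers moved as well: of the 10 fibroblast markers, 9 were tested, 5 rose and 3 fell, with *Fn1* at 0.55 and *Dcn* at -1.64 on the log2 scale. This list shares *Col1a1*, *Col1a2* and *Col3a1* with the chains above, and *Col1a1* and *Col1a2* are among the 5. Of the 14 chondrocyte markers, 5 were tested. Their median of 0.58 is the value of *Chad*, which had only 7 and 8 counts (95% interval -1.08 to 2.27). The regulator gene *Sox9* fell from 866 to 480 counts (-0.47), *Col11a2*, also a chain above, rose from 293 to 395 (0.82), and *Col2a1*, *Chad* and *Col9a3* did not pass. The part of cell makeup in the levels of the members was not tested.

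*P4ha1*, *P4ha2* and *Plod2* are known targets of the transcription factor HIF-1, and P4ha enzymes belong to the same dioxygenase family as the oxygen sensors *Egln1*, *Egln2*, *Egln3* and *Hif1an*. Among 7 related dioxygenase and ascorbate transport genes, 6 were tested, 1 rose and 2 fell, with a median log2 ratio of -0.25. *Egln1* had 2480 control and 1364 *Myl3*-KO counts (log2 ratio -0.48, 95% interval -0.57 to -0.38) and *Egln3* had 55 and 20 (-1.07, -1.89 to -0.31), while *Egln2* and *Hif1an* were each at -0.02. *Slc23a2*, an ascorbate transporter gene, rose (0.23, 0.09 to 0.37). Of 11 low-oxygen genes, a list written when the fall of some of its genes in these libraries was known, 10 were tested, 9 fell and 0 rose, with *Bnip3* not past the test, and the median was -0.56. Beside both lists, 16.8% of all genes tested fell and 18.6% rose. The 10 low-oxygen genes tested ranged from -1.73 for *Ankrd37* to -0.30 for *Vegfa*. The members *P4ha1*, *P4ha2* and *Plod2* were at -0.53, -0.68 and -0.25. The part of oxygen in the levels of the members was not tested, and with 1 culture a genotype, other differences of the cultures cannot be told apart from the deletion.

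**Figure D4:**
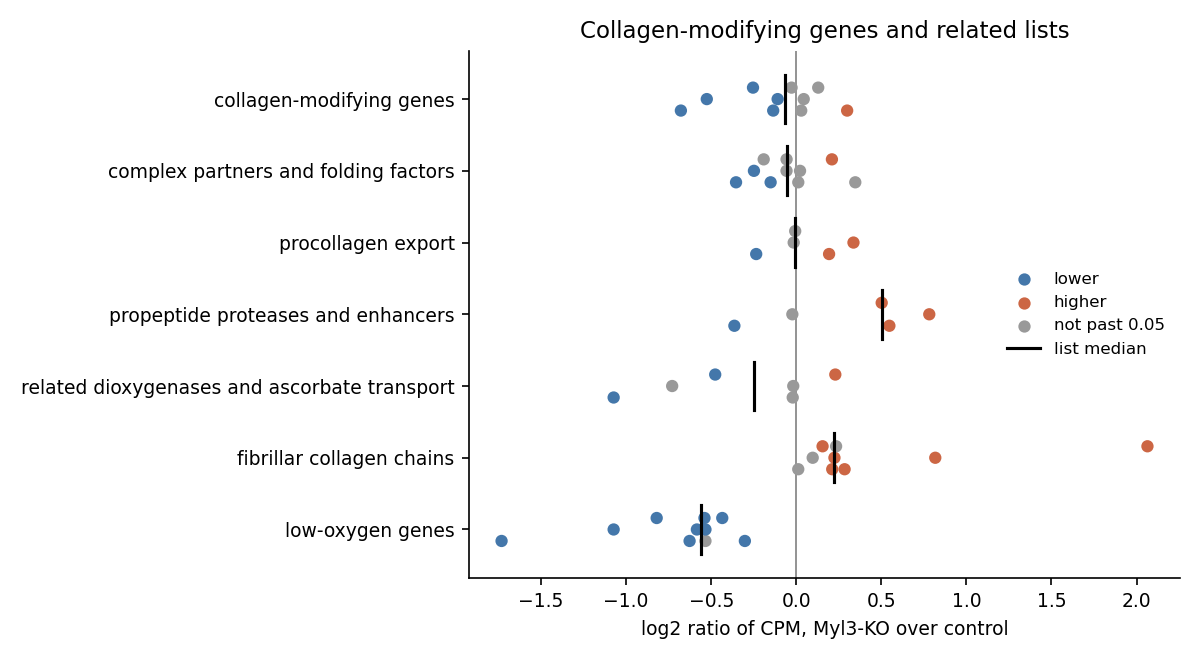
Log2 ratio of CPM, *Myl3*-KO over control, of each gene tested, for the collagen-modifying genes and 6 related lists, coloured by the exact binomial test, with the list median as a black line. The 10 collagen-modifying genes lie on both sides of 0 with a median of -0.07, the fibrillar collagen chains have a median of 0.22 and the low-oxygen genes one of -0.56.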

How the data were processed

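Libraries of primary mouse chondrocytes were compared, 1 control and 1 *Myl3*-KO. The authors deposited, for each gene, an expected count without normalization and an FPKM value per gene, scaled by gene length and library. The submitters' processing notes name GRCm38 and mm10, while the aligner, the counting tool and the strand setting are not given in the sources used here. The column headed NC was read as control. The labels name a SMARTER kit, whereas the methods describe oligo beads and random primers, and Novaseq sequencing.

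Expected counts were rounded for the exact binomial test and its Clopper-Pearson intervals, and unrounded values gave the log2 ratios, with counts under 3 raised to 3. FPKM intervals are exact Poisson intervals of the counts. Ratios between genes have conditional exact intervals. Of the members, 9 had whole counts in both libraries. Positions are those of GENCODE M21 on GRCm38, which held all 10 identifiers. The genes named are the members, the genes of the fixed lists and *Myl3*, and *Znhit1* and *Fbxo24* were named after their values were seen, for their overlap. The members and the lists were chosen with earlier results of these data known. The alternatives were TMM and DESeq2 scaling, FPKM ratios, 1 count added, other filters and limits, edgeR's exact test with preset variation and collagen scaling. The test was tried on data simulated with counting error alone, which hold no spread between cultures and so cannot show how the test behaves under such spread. Python 3.11.15, numpy 2.4.6, pandas 2.3.3, scipy 1.17.1, matplotlib 3.10.9, R 4.3.3, edgeR 4.0.16 and DESeq2 1.42.0 were used.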

Additional observations from a re-analysis of the deposited data

How the results depend on the processing

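The sign of each member's log2 ratio was the same under TMM scaling, DESeq2 size factors, the FPKM ratio and 1 count added to each library. The numbers of members called by the binomial test were the same under both scalings and both filters on low counts, and the numbers past the limit of 0.5 under both scalings, the FPKM ratio and 1 count added. Scaling by the summed counts of the fibrillar collagen chains, chosen after seeing the data, left 0 members higher and 8 lower, with a median of -0.27. *Plod1* then stood at -0.16, *Pcolce* at -0.17, *Crtap* at -0.23 and *P4ha3* at 0.10, because this scaling lowers every ratio alike (of all genes tested, 5.29% were then higher and 43.1% lower, in place of 18.6% and 16.8%). In edgeR's exact test, with the coefficient of variation set to 0.1, 0.2 or 0.4, 0 members were higher and 0 lower at an adjusted p under 0.05. By the same adjusted limit, 61, 4 and 1 of the 12431 genes tested were called. Of the related lists, 1 fibrillar collagen chain was still called higher and 1 low-oxygen gene lower at 0.1, and 0 genes at 0.2 or 0.4. A limit of 0.25 on the log2 ratio put 1 member among those higher and 3 among those lower, and a limit of 1 left 0 lower. The spread between cultures is unknown with 1 library per genotype. No paired analysis was possible because each genotype has 1 library and the column headings carry the single number 1.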

Other observations

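The length that each count and FPKM value imply together differed between the libraries for 6 of the 10 members. It was 2209 bases in the control and 2251 bases in *Myl3*-KO for *P4ha2*, 2317 and 2342 for *P4ha3*, 3021 and 3030 for *P4ha1*, 3152 and 3142 for *Plod1*, 3094 and 3067 for *Plod3*, and 1504 and 1482 for *Pcolce*. For *P3h1*, *Crtap*, *Plod2* and *Serpinh1* the lengths rounded to the same number of bases or differed by less than 1 base. The transcript makeup behind these lengths was not tested.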
